A study of Mus musculus with 8 samples.

Results

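Exon peaks of N6-methyladenine (6mA) were the least common of the authors' 5 annotation classes, and they lay towards the end of the transcript. An exon peak was taken as 1 row per peak name whose first row carried the class exon, and 1108 of 90798 peaks (1.22%) over the 8 deposited lists met this rule. The brain lists held 468 of them among 31913 peaks and the stem cell lists 640 among 58885. They were assigned to 443 gene symbols in brain and 609 in the cells. The class is narrower than the word: no exon peak had its centre within 2 kb of the start site of the transcript in its first row. The deposited class of such a peak is promoter, and the nearest exon peak had its centre 2038 bases past that start. Other gene starts can lie nearer, and 5 exon peaks touched a window of 300 bases around a RefSeq gene start.

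The lists came from DNA that was sonicated, pulled down with a 6mA kit and sequenced beside untreated input. NTD brains came from embryos with neural tube defects, mainly hindbrain malformation and spina bifida, whose dams ate a low-folate diet and received 1.5 mg/kg of the folate antagonist methotrexate into the abdomen at gestational day 7.5. CON brains came from normal embryos with a closed neural tube, and their treatment is given as normal saline. Embryos of both groups were examined at embryonic days 9.5 to 10.5, and each group had 3 immunoprecipitations called against 1 input of its own. Sv/129 mouse embryonic stem cells grew in folate-free medium (FA0) or in the same medium with 4 mg/L folate (FA4), with 1 list each. Diet, drug and defect go together in NTD and cannot be told apart. Neither pooling nor separate embryos are stated for the brain immunoprecipitations. A p-value therefore sets a difference against the spread between pulldowns, which may be technical. The label brain and the cell type could not be checked against marker genes in DNA pulled down for 6mA, and Case lists were read as NTD and Control lists as CON.

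N6-methyladenine carries a methyl group on the nitrogen outside the ring of adenine. It is common in bacterial DNA, where GATC is a well-known target motif, while in mammalian DNA it is rare and its level and origin are debated. Exons are the parts of a gene kept in its mature RNA. In many mammalian genes the last exon, which usually holds most of the untranslated end of the message, is also the longest, and long introns separate the short exons before it.

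No genome was used here, so the DNA under most exon peaks is not shown. For 3 exon peaks the summit fell inside a RefSeq promoter window of GRCm38.p6, the assembly that mm10 names, and these windows are shown because they are the exon peak DNA at hand. Each window runs from 250 bases before to 50 bases after a RefSeq gene start, and capitals mark the bases that lay under the deposited peak. All 3 genes are predicted long non-coding RNAs on the plus strand, whose start in the authors' table lay 4385, 2381 and 4903 bases upstream of the RefSeq start.
Gm40964, NTD 3, chr13:58134886-58135185: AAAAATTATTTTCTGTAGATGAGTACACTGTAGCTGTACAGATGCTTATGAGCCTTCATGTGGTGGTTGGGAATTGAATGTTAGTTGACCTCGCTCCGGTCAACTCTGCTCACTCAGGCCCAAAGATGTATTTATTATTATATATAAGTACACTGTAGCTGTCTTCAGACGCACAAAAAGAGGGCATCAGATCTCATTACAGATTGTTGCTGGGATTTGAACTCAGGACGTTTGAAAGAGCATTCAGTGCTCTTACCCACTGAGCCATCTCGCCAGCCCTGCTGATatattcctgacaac
Gm39103, CON 2, chr7:134022530-134022829: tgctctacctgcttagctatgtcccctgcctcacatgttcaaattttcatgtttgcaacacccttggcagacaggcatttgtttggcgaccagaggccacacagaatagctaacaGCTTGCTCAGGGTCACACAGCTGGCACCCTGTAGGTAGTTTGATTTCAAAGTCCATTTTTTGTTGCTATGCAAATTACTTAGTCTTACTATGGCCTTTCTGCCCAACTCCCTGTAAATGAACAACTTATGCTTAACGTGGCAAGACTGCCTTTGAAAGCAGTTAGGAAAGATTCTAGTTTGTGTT
Gm32840, CON 3, chr15:97043890-97044189: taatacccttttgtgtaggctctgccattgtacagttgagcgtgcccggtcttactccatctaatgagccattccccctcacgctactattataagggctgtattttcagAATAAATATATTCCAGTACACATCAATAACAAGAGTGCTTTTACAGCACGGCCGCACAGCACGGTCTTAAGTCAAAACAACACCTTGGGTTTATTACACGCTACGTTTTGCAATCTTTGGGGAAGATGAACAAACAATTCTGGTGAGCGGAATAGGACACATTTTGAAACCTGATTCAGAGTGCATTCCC

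The peak at Gm40964 covered 286 bases of its window with 8 tags at a fold of 2.82. The peak at Gm39103 covered 185 bases with 7 tags at a fold of 2.55, and the peak at Gm32840 covered 190 bases with 9 tags at a fold of 2.71. A tag is a sequenced fragment as counted by the authors at the peak, and the fold is their enrichment over background. A and T made up 57.0%, 58.4% and 58.9% of the bases under the peaks at Gm40964, Gm39103 and Gm32840, beside a median of 47.3% over 32815 such windows of 300 bases. The first values cover the part of a window under a peak and the median covers whole windows, so the measures are unlike. No value for DNA away from gene starts was computed, and the peaks are not called rich in A and T. GATC, a motif that reads the same on both strands, occurred once under the Gm40964 peak and not under the other two, while 48.0% of all windows held it. These are descriptions of 3 windows, and 5 exon peaks in all touched one.

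The first comparison asks whether exons of brains with neural tube defects carried more or fewer 6mA peaks. NTD lists held 83, 77 and 114 exon peaks, and CON lists held 46, 86 and 62. The highest NTD list stood above every CON list, but the groups overlapped, with means of 91.3 ± 19.9 in NTD and 64.7 ± 20.1 in CON (SD, n = 3 each). As a share of the list, exon peaks made up 1.43%, 1.37% and 1.61% in NTD and 1.64%, 1.30% and 1.55% in CON. The shares interleaved, at 1.47% ± 0.122 in NTD and 1.50% ± 0.178 in CON (SD, n = 3 each). The exact permutation test gave p = 0.3 for the number and 0.9 for the share (two-sided, adjusted over 6 results 0.45 and 0.9), and with 3 lists against 3 it cannot go below 0.1. The difference of 26.7 exon peaks was 15.3 without NTD 3 and 17.3 without CON 1, and −1.33 with each list cut to the length of the shortest by deposited p.

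**Figure D1:**
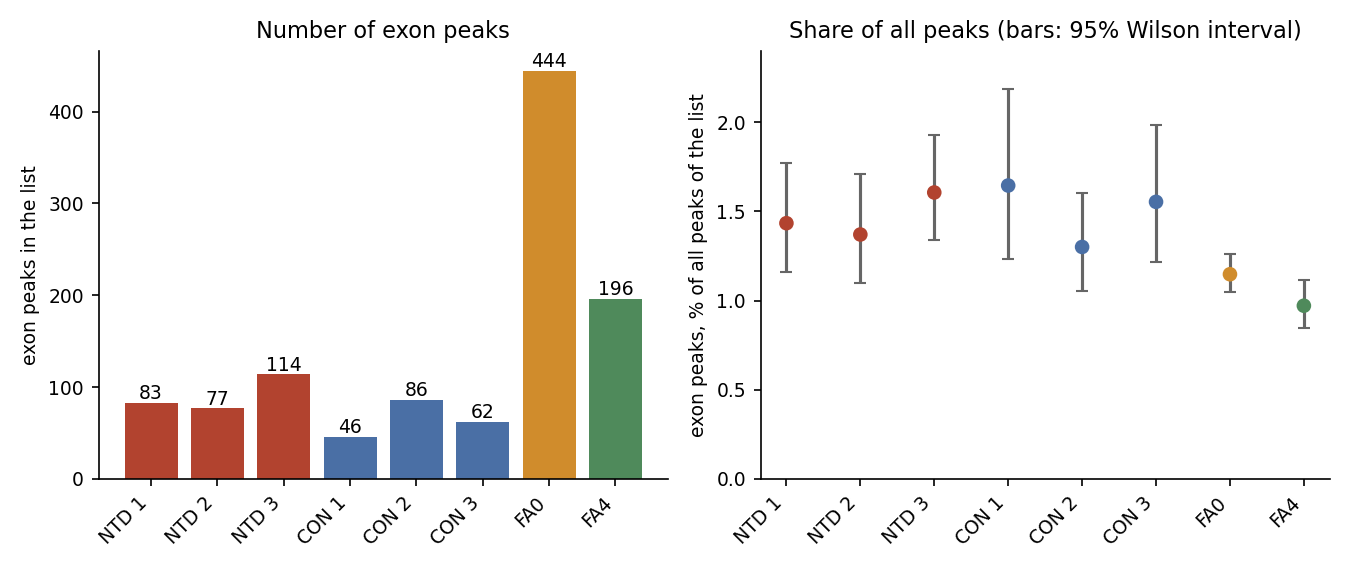
Exon peaks per list as a number (left, bars from 0) and as a percentage of all peaks of the list (right, points with 95% Wilson intervals, which cover counting error only), coloured by group. The NTD and CON shares interleave between 1.30% and 1.64%, and FA0 with 444 exon peaks and FA4 with 196 stand at 1.15% and 0.971% of their lists.

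FA0 held 444 exon peaks among 38699 (1.15%, 95% Wilson interval 1.05% to 1.26%), and FA4 held 196 among 20186 (0.971%, 0.845% to 1.12%). FA0 had 2.27 times as many exon peaks as FA4 and 1.92 times as many peaks in all. The difference in share was 0.176 percentage points (95% Newcombe interval −0.000494 to 0.344), so it was not distinguishable from 0 by counting error, and with 1 list each there is no replicate check. These intervals treat peaks as independent and cover counting error only. Chromosome 8 held 31 of the 444 FA0 exon peaks (6.98%) and 41 of the 196 FA4 exon peaks (20.9%). Of the other peaks, 9.33% in FA0 and 18.7% in FA4 were on chromosome 8. Without chromosome 8 the exon share was 1.18% in FA0 and 0.944% in FA4. Predicted transcript accessions stood at 51.8% to 62.3% of the exon peaks of a brain list and at none of those in the cells. The transcript sets behind the classes therefore differ, and shares are not compared between tissue and cells.

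Exon peaks, like those of the other classes, were shallow. Of the 1108, 1008 (91.0%) had 10 tags or fewer, beside 92.1% of intron, 88.6% of promoter, 89.8% of upstream and 90.3% of intergenic peaks. The median exon peak had 7 to 9 tags in every list. At the common background of a list, 1 more tag always adds the same step of fold, so most exon peaks fall on a few rising lines in the plot of tags against fold. The median fold of exon peaks was 2.57, 2.64 and 2.50 in NTD and 2.52, 2.55 and 2.55 in CON, which overlap (2.57 ± 0.0685 against 2.54 ± 0.0159, SD, n = 3 each, exact permutation p = 0.6, adjusted 0.72). With lists of equal length the difference in median fold was 0.245 instead of 0.0314 (exact permutation p = 0.1, the smallest possible). Within the 6 brain lists it differed from that of the other peaks by −0.0127 on average, with no difference at all in 4 lists (exact sign-flip p = 1, adjusted 1). Exon peaks averaged 266, 276 and 265 bases in width in NTD and 279, 277 and 285 in CON. NTD exon peaks were narrower in every list, by 11.6 bases, with the lowest exact permutation p this design allows (0.1, adjusted 0.3). Other peaks averaged 265, 269 and 265 bases in NTD and 285, 284 and 285 in CON. Exon peaks were wider than these in 3 lists and narrower in 3, by −0.774 bases on average (exact sign-flip p = 0.875, adjusted 1).

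**Figure D2:**
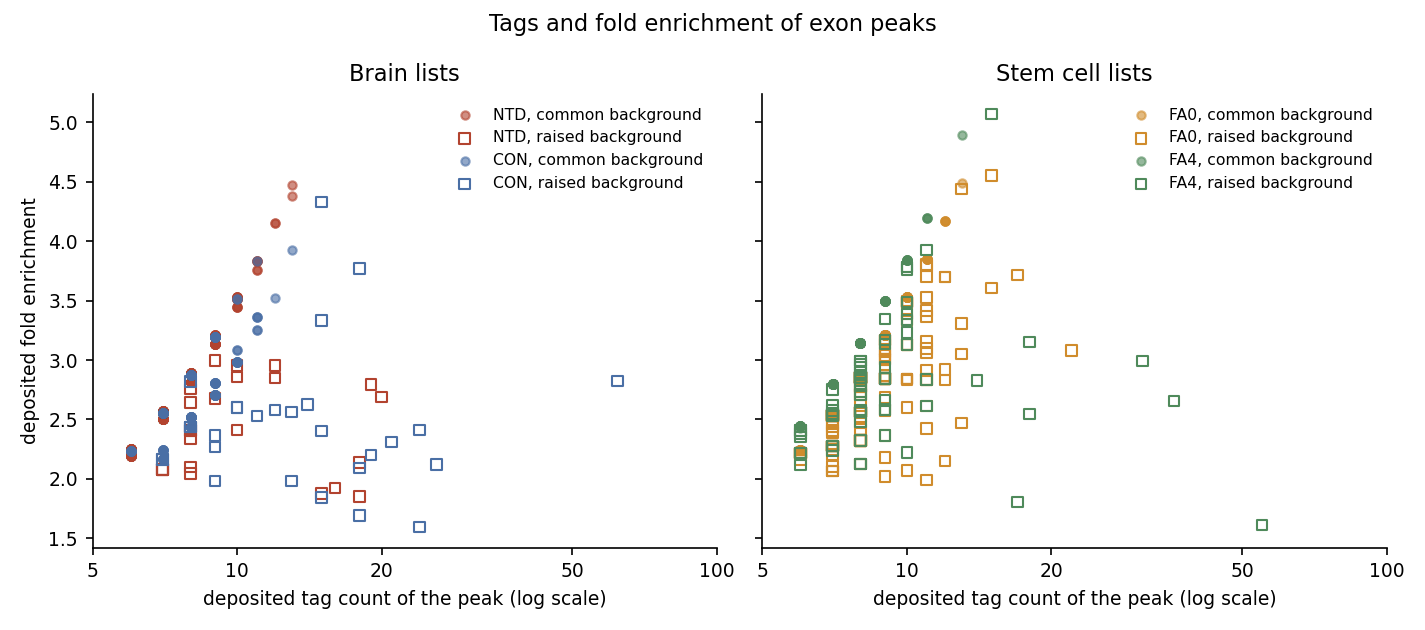
Deposited tag count (x, log scale) against deposited fold enrichment (y) for each exon peak of the brain lists (left) and stem cell lists (right). Filled circles are peaks at the commonest background of their list and open squares are peaks whose background was over 1% above it. Peaks with more than 20 tags all lie among the squares, at folds of 3.08 or less.

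A deposited q of at most 0.05 was reached by 23 exon peaks, 5 in brain, 10 in FA0 and 8 in FA4. These were 1.07% of exon peaks in brain, 2.25% in FA0 and 4.08% in FA4, near the 1.28%, 2.67% and 4.68% of all peaks of the same lists. The NTD pair was Gm13157 with 13 tags (fold 4.47, q = 0.0120) and Gm41072 with 13 tags (fold 4.38, q = 0.0191), both predicted genes. The CON trio was Smim13, a small membrane protein gene, with 15 tags (fold 4.33, q = 0.00527), Gm13139 with 18 tags (fold 3.77, q = 0.0118) and Pisd-ps2, a pseudogene of a phosphatidylserine decarboxylase, with 62 tags (fold 2.82, q = 5.75e-08). The q is the authors' value, and the background at Pisd-ps2 was 21.3 tags, beside a common background of 2.69 in that list.

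The leading exon peaks of the brain lists were otherwise single finds with a q over 0.05. In NTD 1 a tie of 6 peaks led with 10 tags and a fold of 3.53, among them Blm, the helicase gene of Bloom syndrome in humans, Hmgn2, a nucleosome-binding protein gene, and Arfgap3, a Golgi traffic gene. NTD 2 had Nkain4 and Gm32786 after Gm13157, with 12 tags and a fold of 4.15 each. NTD 3 had Adora2a, an adenosine receptor gene, and Prl3c1, a prolactin family gene, after Gm41072, with 11 tags and a fold of 3.76 each. In CON 1 the highest fold stood at Gm40139 with 13 tags (3.92), in CON 2 Gm36411 followed Smim13 with 11 tags (3.83), and in CON 3 Ccdc168 led with 12 tags (3.52).

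In FA0 the highest fold stood at Ttn, which encodes the giant muscle protein titin, with 15 tags (fold 4.55, q = 0.000802) at chr2:76787112-76787500. Gm10789, a non-coding RNA, and Gpr132, a G-protein-coupled receptor, followed with 13 tags each (folds 4.49 and 4.44). B3gntl1, Tek, the angiopoietin receptor of blood vessels, Scaper and Asb15 tied at 12 tags and a fold of 4.17 (q = 0.0180). Gm2016, Gm3383 and the gastric mucin gene Muc6 also passed, with 17, 15 and 22 tags at folds of 3.72, 3.61 and 3.08 over raised backgrounds of 3.84, 3.44 and 6.47 tags.

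In FA4 the highest fold stood at Adam24, a testis metalloprotease gene, with 15 tags (fold 5.07, q = 0.000131) at chr8:40680246-40680609. It was the only exon peak of the 1108 with a fold of 5 or more. C1ra, a protease of the complement cascade, had 13 tags (fold 4.89, q = 0.00102), and 1700024I08Rik, Sipa1l1 and 0610037L13Rik tied at 11 tags (fold 4.19, q = 0.0307). The predicted genes Gm2897, Gm10406 and Gm3558 lie on chromosome 14 and had 18, 31 and 36 tags at folds of 3.15, 2.99 and 2.66. Their backgrounds were 5.03, 9.70 and 12.9 tags against a common value of 1.86, and genes with near-identical copies may share reads.

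Next in FA0 came a tie of 7 exon peaks with 11 tags (fold 3.85, q = 0.0676), which held Neat1, the protease gene Ctso, the cytochrome gene Cyp3a13 and Clec14a, a gene of vessel lining cells. Next in FA4 came Otud4, a deubiquitinase gene, with 11 tags (fold 3.92, q = 0.0538), and a tie of 7 with 10 tags (fold 3.84, q = 0.108) that held F2, the prothrombin gene, Vps13a, Mipep, a mitochondrial peptidase gene, and Zfp445. These lie past the q of 0.05.

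Exon peaks lay far along their transcripts. The position of a peak centre was expressed as a percentage of the way from the start (TSS) to the end (TTS) of the transcript in the peak's first row. The median position was 75.5%, 79.3% and 78.6% in NTD and 86.1%, 80.4% and 79.9% in CON. It was 86.3% in FA0 and 88.9% in FA4. Intron peaks had a median of 34.6% to 37.9% in the brain lists and 46.3% and 46.2% in FA0 and FA4. Over the 6 brain lists exon peaks stood at 80.0% ± 3.46 and intron peaks at 36.3% ± 1.47 (SD, n = 6), 43.7 percentage points apart and in the same direction in 6 of 6 lists. This is a description with no test, since class and position come from the same transcript annotation and the position that exon bases alone would give was not computed. In transcripts of at least 20 kb the distance was 35.8 points.

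**Figure D3:**
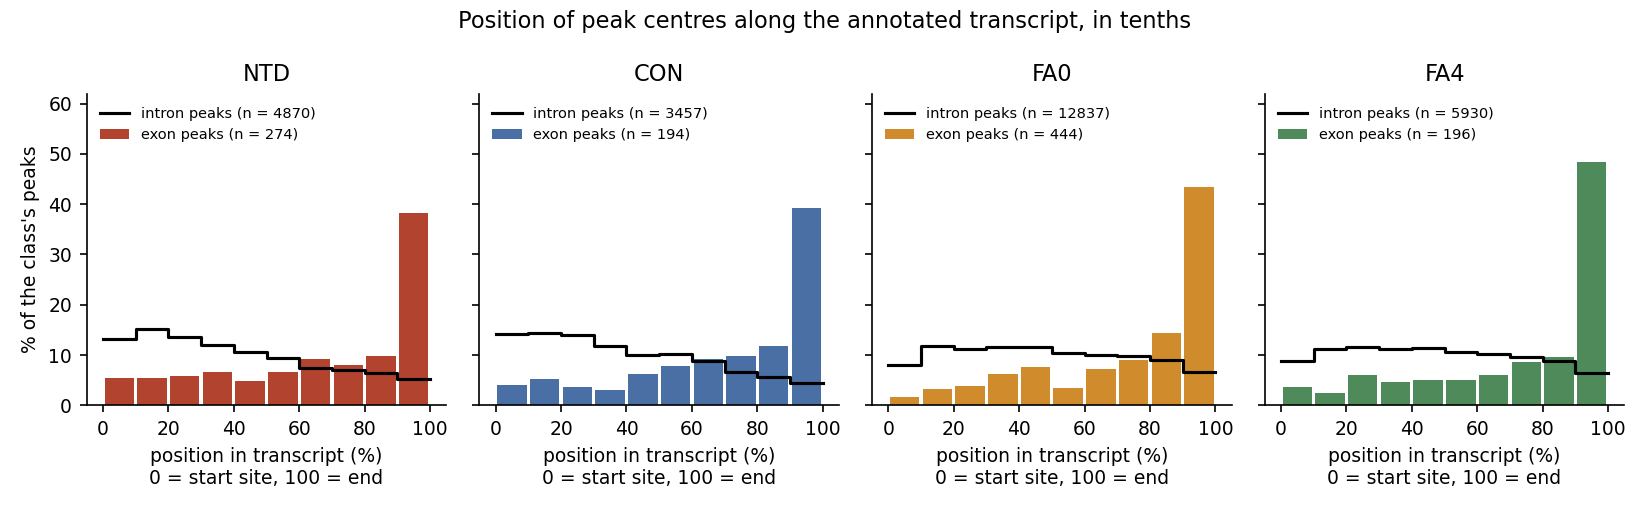
Share of peaks (y, %) in each 10% step of the transcript (x, 0 = start site, 100 = transcript end) for exon peaks (bars) and intron peaks (black line) in NTD, CON, FA0 and FA4, brain lists pooled by group. In every panel the last step is the tallest exon bar, from 38.3% in NTD to 48.5% in FA4, while introns have 4.43% to 6.59% there.

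The last 10% of the transcript held 469 of the 1108 exon peaks (42.3%) and 1638 of 27094 intron peaks (6.05%). By group it held 38.3% of exon peaks in NTD and 39.2% in CON, and 43.5% in FA0 and 48.5% in FA4. Within 1 kb of the transcript end lay 330 exon peaks (29.8%), against 119 intron peaks (0.439%). The exon peaks nearest to an end were at Aco1, a cytosolic aconitase that also governs iron-responsive messages, and Pafah1b1, whose human counterpart is the lissencephaly gene LIS1. Both were FA0 peaks, with centres 2 and 7 bases before the end. At the other extreme, the FA0 peak at Abca13 lay 463 kb before the end and 5.87% of the way along.

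The median exon position was lower in all 3 NTD lists than in any CON list, at 77.8% ± 2.01 against 82.1% ± 3.46 (SD, n = 3 each). The difference of −4.30 points had the lowest exact p the design allows (0.1, adjusted 0.3), and the groups are close, since 79.3% in NTD 2 and 79.9% in CON 3 nearly touch. Without CON 1 the difference was −2.31 points (exact permutation p = 0.2), and with lists of equal length it turned to 3.89 points (exact permutation p = 0.6). In transcripts of at least 20 kb the NTD medians were 64.03%, 60.9% and 77.2% and the CON medians 77.0%, 74.2% and 63.5%, which overlap. In the cells, transcripts of that length had medians of 87.0% in FA0 and 89.8% in FA4.

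Counted per peak, the genes of exon peaks were shorter than those of intron peaks. A gene counts once for each of its peaks, and FA0 had 12837 intron peaks in 5397 genes. Class and gene length both come from gene annotation, so this is a description with no test. The median length of the matched RefSeq gene was 21.4 to 31.9 kb for the exon peaks of a brain list and 87.8 to 122 kb for its intron peaks. In FA0 it was 44.7 kb for exon and 136 kb for intron peaks, and in FA4 44.4 and 156 kb. Of the exon peaks with a matched gene, 75.2% to 81.4% in an NTD list and 74.4% to 76.3% in a CON list had a protein-coding one. This was below the 82.8% to 84.3% of matched intron peaks in the 6 lists. In the cells 95.02% (FA0) and 95.4% (FA4) of matched exon peaks had a protein-coding gene, and 95.1% of matched intron peaks in both lists.

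Few exon peaks were found again. Merging overlapping peaks of the 6 brain lists gave 31119 regions, of which 455 held an exon peak, and 442 of these (97.1%) were present in 1 list alone. The other regions stood at 98.3%. None of the 455 was held by all 3 NTD lists and no CON list, or by all 3 CON lists and no NTD list. Over all regions this was so for 8 (0.0257%) in NTD alone and 16 (0.0514%) in CON alone, and the count of 0 among 455 is near that background. No exon region was held by all 6 lists, against 22 of the 30664 other regions, and here too a count of 0 among 455 is near the background.

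Per list, 6.02%, 3.90% and 3.51% of exon peaks in NTD and 8.70%, 3.49% and 11.3% in CON overlapped a peak of another brain list by at least 1 base. For other peaks the values were 3.85%, 4.02% and 2.98% in NTD and 7.71%, 3.45% and 5.22% in CON. Exon peaks were higher in 5 of 6 lists, by 1.61 points on average (6.15% ± 3.23 against 4.54% ± 1.72, SD, n = 6), which the exact sign-flip test did not separate from 0 (p = 0.09375, adjusted over 4 results 0.1875). Without CON 3 the difference was 0.340 points (exact sign-flip p = 0.625), and with lists of equal length it was −1.05 points (exact sign-flip p = 0.125). At the common background alone they were higher by 0.582 points (exact sign-flip p = 0.03125, unadjusted). Within their own group, 3.61%, 1.30% and 1.75% of NTD exon peaks and 6.52%, 3.49% and 8.06% of CON exon peaks recurred (2.22% ± 1.23 against 6.02% ± 2.33, SD, n = 3 each, exact permutation p = 0.2, adjusted 0.4). The difference of −3.80 points changed sign without CON 3, to 0.554 points, and was −0.553 points without CON 1, −2.37 points without CON 2 and −0.900 points with lists of equal length.

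**Figure D4:**
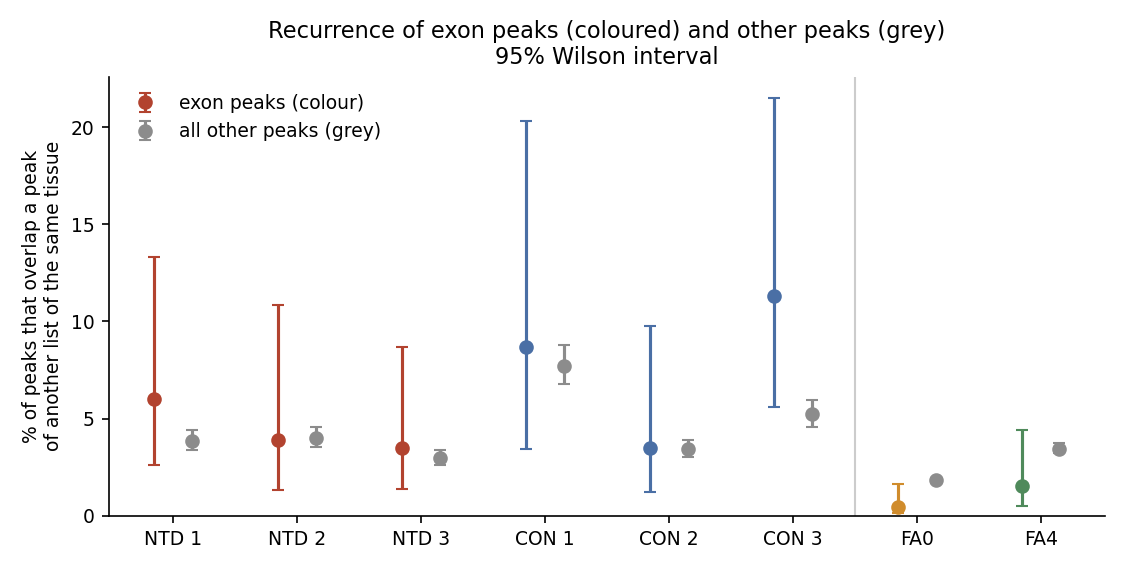
Percentage of peaks that overlap a peak of another list of the same tissue or cell type (y) for exon peaks (coloured) and all other peaks (grey) of each list, with 95% Wilson intervals. The intervals of exon peaks are wide, since a list holds 2 to 7 such peaks, and contain the value of the other peaks in 5 of the 6 brain lists and in FA4.

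In all, 13 regions held an exon peak and were present in 2 or more brain lists, 6 of them in both groups, 3 in NTD lists alone and 4 in CON lists alone. Of the regions without an exon peak, 512 were in 2 or more lists, and 293 of these were in both groups. With 13 regions, the split by group is not read as a trait of exon peaks. Among the 13, Gm15433, a predicted gene on chromosome 1, was the most widely held. Its exon peaks had 15 and 20 tags in NTD 1 and NTD 2 and 18 and 18 tags in CON 1 and CON 3, at chr1:84963835-84964539. The tags were high but so was the background, at 7.53 and 6.81 in NTD and 8.08 and 10.2 in CON, and the folds were 1.88 and 2.69 in NTD and 2.09 and 1.69 in CON.

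Slc30a4, a zinc transporter gene, had 18 tags in NTD 3 and 26 and 24 tags in CON 1 and CON 3, at chr2:122681798-122682242 and 96.1% to 96.6% of the way along the transcript. Its background was 9.27 in NTD 3 and 11.7 and 14.7 in CON, so the folds were 1.85 in NTD and 2.12 and 1.59 in CON. Gm13157 had 13 and 12 tags in NTD 2 and NTD 3 and 12 tags in CON 1 at chr4:147754763-147755770, with folds of 4.47 and 2.85 in NTD and 2.58 in CON. Among the 13 regions it was the only one with an exon peak in the cells, where FA4 had 18 tags and a fold of 2.55.

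The NTD lists alone shared Gm34548, with 9 and 7 tags in NTD 1 and NTD 3, Fam21, a gene of the endosomal WASH complex, with 6 and 7 tags in the same lists, and 1 of the 2 regions at LOC101055758, with 19 and 14 tags in NTD 1 and NTD 2. Only Gm34548 was exon in both lists. The CON lists alone shared Serpina3k, a serine protease inhibitor gene, with 9 and 7 tags in CON 1 and CON 2, Pisd-ps2 with 47 and 62 tags in CON 1 and CON 3, the other region at LOC101055758 with 19 and 24 tags and Gm21811 with 14 and 15 tags, both in CON 2 and CON 3. Of these, Pisd-ps2 was an intron peak in CON 1.

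The remaining 3 regions were in 1 list of each group. Amtn, an enamel protein gene, had 7 tags in NTD 2 (exon) and 8 in CON 2 (intron). Vmn2r115, a vomeronasal receptor gene, had 7 tags in NTD 3 and 9 in CON 3, and 9530057J20Rik had 9 in NTD 1 and 21 in CON 3. A raised background was present at 17 of the 26 exon peaks in these 13 regions (65.4%), against 36 of the 442 exon peaks found in 1 list (8.14%). The part of the background in the recurrence was not tested.

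**Figure D5:**
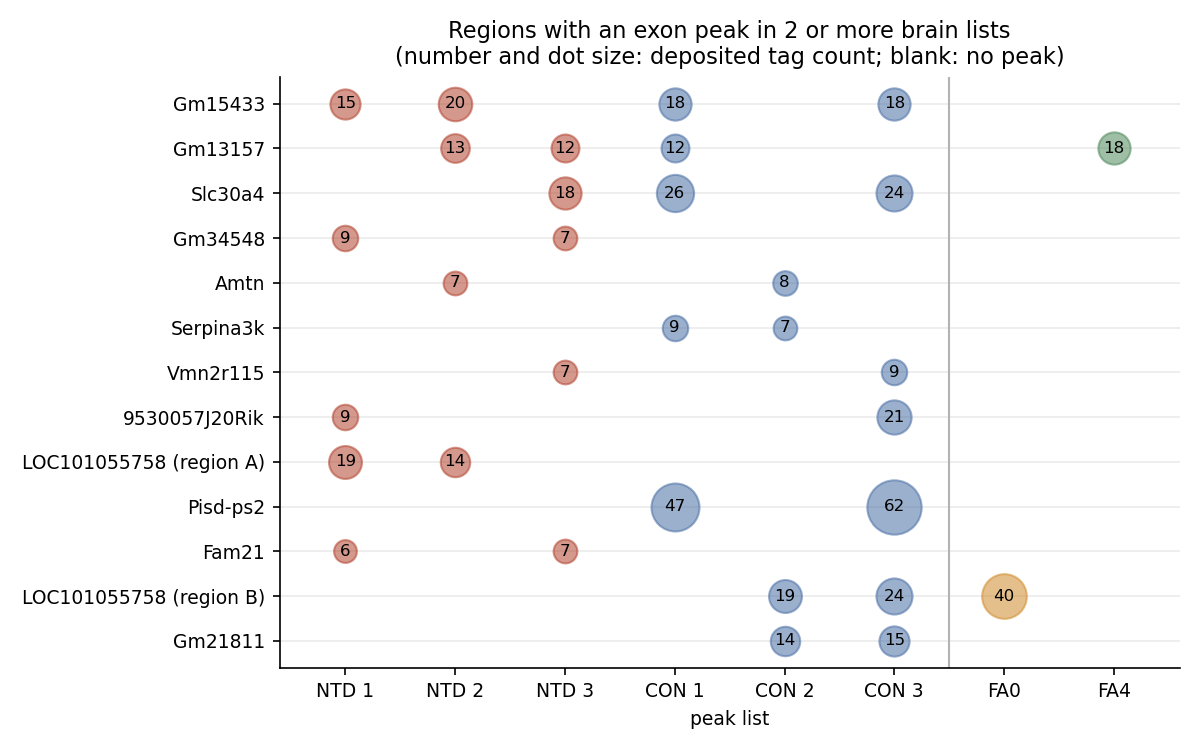
The 13 regions with an exon peak that were held by 2 or more brain lists (rows) against the 8 lists (columns). Numbers and dot areas give the deposited tag count of the peak in that list, whatever its class, and a blank means that the list had no peak there. No row fills all 3 NTD or all 3 CON columns, and 2 rows have a peak in a stem cell list.

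In the stem cells, 2 of 444 FA0 exon peaks overlapped a peak of FA4 (0.450%, Wilson 0.124% to 1.63%), against 1.82% of the other FA0 peaks. In FA4, 3 of 196 overlapped an FA0 peak (1.53%, 0.522% to 4.40%), against 3.46% of the other FA4 peaks. Gm2016 was the only exon peak shared as exon in both lists, with 17 tags in FA0 and 8 in FA4 and a raised background of 3.84 and 2.51. The exon peak at Ywhae (10 tags in FA0, 9 in FA4), a 14-3-3 protein gene, met an intron peak of FA4, and at Stkld1 an intron peak of FA0 with 9 tags met an exon peak of FA4 with 8. Taking all 8 lists, 39 of the 1108 exon peaks overlapped a peak of another list and 1069 did not. This count mixes overlaps within brain, within the cells and between them. It was not made for the other peaks, so it is not read as a trait of exon peaks.

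By gene the picture was similar. Of the 443 genes with an exon peak in brain, 16 had one in 2 or more brain lists and none had one in all 3 lists of a group. Of the 16, 9 were in both groups, 5 in NTD lists alone and 2 in CON lists alone. NTD lists held 274 of the 468 brain exon peaks. The same counts were not made for genes with peaks of other classes, so this split is a description. Beyond those with a shared region, the 16 include pairs of separate exon peaks in 1 gene. Kcnj6, an inwardly rectifying potassium channel gene of neurons, had 8 tags at 69.4% of the transcript in NTD 3 and 6 tags at 96.9% in CON 2. Synrg, which works in clathrin-coated vesicle traffic, had 9 tags at 19.2% in NTD 3 and 10 tags at 54.3% in CON 2. The zinc finger gene Zfp287 had 8 tags at 84.6% in NTD 3 and 7 tags at 80.3% in CON 3, and it also had an exon peak of 6 tags in FA0 at 91.0%.

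The genes held by NTD lists alone included Lama3, a laminin chain of basement membranes, with 6 tags at 35.3% in NTD 1 and 7 tags at 3.49% in NTD 2. Rimklb, an amino acid ligase gene, had 8 tags at 12.04% in NTD 1 and 6 tags at 9.66% in NTD 2 in neighbouring stretches, and an exon peak of 10 tags at 93.8% in FA0. Als2cr11b had 7 tags in each of NTD 1 and NTD 2, and Vmn2r114 had 8 and 9 tags in the same lists at opposite ends of the gene (9.96% and 96.1%). None of these pairs overlapped.

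FA0 exon peaks lay in 429 genes and FA4 exon peaks in 192, with 12 in common (2.80% of the FA0 genes and 6.25% of the FA4 genes). Genes with an intron peak numbered 5397 in FA0 and 3082 in FA4, with 1955 in common (36.2% of the FA0 and 63.4% of the FA4 genes). For genes with a peak of any class it was 5980 of 12174 in FA0 (49.1%) and of 8014 in FA4 (74.6%). The shared part depends on the size of the sets, which differ widely, so these shares do not rank the classes. The 12 with an exon peak in both were Adam24, Atxn1l, Ccdc85a, Gm2016, Neat1, Pdp2, Psme4, Rasa2, Setd2, Ttc19, Usp32 and Vps13a. Neat1, the non-coding RNA that builds nuclear paraspeckles, had exon peaks of 11 and 8 tags in FA0 and 1 of 7 tags in FA4. Setd2, the methyltransferase that places trimethylation on histone H3 lysine 36, had 8 tags at 48.4% of the transcript in FA0 and 6 tags at 19.5% in FA4. Ttc19, a mitochondrial complex III assembly gene, had 12 tags at 96.1% in FA0 and 8 tags at 97.7% in FA4, in neighbouring stretches that did not overlap.

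Some genes carried several exon peaks in 1 list. Fat1, a giant atypical cadherin gene on chromosome 8, led with 3 in FA0, of 7, 8 and 6 tags between 65.9% and 72.2% of the transcript. Another 13 FA0 genes had 2, among them Macf1, a cytoskeletal linker gene, with 8 and 7 tags, Nckap1, a gene of the WAVE actin regulatory complex, with 7 and 7 tags, and Cdk7, a kinase gene of the transcription machinery, with 8 and 7 tags. In FA4, 4 genes had 2, namely Emc8, Mtmr7, Rfx3, a transcription factor gene of ciliated cells, and Tex15, a meiosis gene. Emc8, Mtmr7 and Tex15 are on chromosome 8.

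Exon peaks were also counted in genes of the pathways that the study's title and design point to. Over 9 lists with 354 genes in all, 10 had an exon peak in brain and 12 in the cells. This is 5.43% of the 184 list genes with a peak of any class in brain and 5.02% of 239 in the cells, beside 3.12% and 4.29% of all genes with any peak. No list is called particular from these counts.

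Of 20 genes for DNA adenine and cytosine methylation, 9 had a peak of some class in brain and 13 in the cells. Among them, 2 had a brain exon peak and none a cell exon peak. Mettl14, the partner subunit of the RNA adenine methyltransferase, had 8 tags in NTD 3 (fold 2.82) at 63.2% of its transcript. Alkbh3, a demethylase that repairs alkylated DNA and RNA, had 9 tags in NTD 2 (fold 3.19) at 11.04%. Alkbh1, the enzyme in the series title, is among the genes without an exon peak in any list.

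Of 29 genes for methylation of histone H3 lysine 9 and heterochromatin, Morc2a, an ATPase gene that works with the HUSH silencing complex, had 7 tags in NTD 3 at 93.3%. Cbx5, which encodes the heterochromatin protein HP1 alpha, had 8 tags in FA4 (fold 3.14) at 98.7%. Of 38 folate and one-carbon genes, 14 had a peak of some class in brain and none had an exon peak there. The share over all genes with any peak in brain was 3.12%, and 0 of 14 is near it.

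Of 54 neural tube closure genes, 31 had a peak of some class in brain and 2 had an exon peak, beside 3.12% of all genes with any peak. Both were in NTD lists, which held 274 of the 468 brain exon peaks. Shroom3, which drives apical constriction of neural plate cells, had 7 tags in NTD 3 (fold 2.50) at 39.0%, and Kif20b, a kinesin of cell division, had 8 tags in NTD 1 (fold 2.89) at 7.03%. In the cells the planar cell polarity genes Fzd6 and Celsr1 had 9 tags in FA0 (79.8%) and 6 tags in FA4 (2.13%). Each of these was in 1 list.

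Of 48 Hedgehog, Wnt and BMP genes, Cdon, a co-receptor for Sonic hedgehog, had 11 tags in CON 1 at 95.01% and the ligand gene Wnt7b had 9 tags in CON 3 at 97.2%. The BMP receptor gene Bmpr2 had 7 tags in FA0 at 96.1%, and Apc, a scaffold of the complex that degrades beta-catenin, had 9 tags in FA4 at 76.6%. Sox11, a transcription factor of immature neurons, was the only one of 45 neural progenitor genes, with 8 tags in NTD 3 at 96.3%. Lin28b, which blocks maturation of let-7 microRNAs, was the only one of 37 pluripotency genes, with 7 tags in FA0 at 96.4%. Mcm5, a subunit of the replicative helicase, was the only one of 43 cell cycle and repair genes, with 7 tags in FA0 at 71.5%. A peak of some class was present in 18 of the neural progenitor genes in brain. In the cells it was present in 25 pluripotency and 23 cell cycle and repair genes. Over all genes with any peak, 3.12% in brain and 4.29% in the cells had an exon peak, and 1 gene in each of these sets is near that share.

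Of 50 neuronal adhesion and synapse genes, which are mostly long, 46 had a peak of some class in brain and 47 in the cells. An exon peak was present in 2 and 4 of them, beside 443 of all 14195 genes with any peak in brain (3.12%) and 609 of 14208 in the cells (4.29%). Ptprd, a synaptic receptor phosphatase gene, had 9 tags in CON 3 at 1.07% and 8 tags in FA4 at 95.2%, and Tenm3 and Csmd1 had 8 tags in FA0 (99.4%) and 6 tags in FA4 (93.3%). Hoxb7, with 7 tags in FA0, was the only one of 39 Hox genes, of which 8 had a peak of some class in the cells.

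Counts for large gene families are given as a description, with no test. Zinc finger genes named Zfp took 2.41%, 2.60% and 4.39% of the exon peaks in NTD and 6.52%, 0% and 6.45% in CON, against 0.611% to 0.911% of the other peaks of a brain list. These shares rest on 2, 2 and 5 exon peaks in NTD and 3, 0 and 4 in CON. Zfp genes were above the other peaks in 5 of 6 lists and had no exon peak in CON 2. They made up 2.93% of exon peaks in FA0 and 1.53% in FA4, against 1.41% and 1.25% of other peaks. In all, 15 Zfp genes had a brain exon peak and 16 a cell exon peak, of 128 and 228 with a peak of any class. Over all genes with any peak, 3.12% in brain and 4.29% in the cells had an exon peak. Most of the Zfp exon peaks lay past 80% of the transcript, beside medians of 75.5% to 88.9% for all exon peaks of a list.

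Vomeronasal receptor genes, which encode pheromone receptors, took 1.20% to 2.60% of the exon peaks of an NTD list and 1.61% to 3.49% of those of a CON list, against 0.560% to 0.872% of the other peaks of a brain list. In the cells they took 0.901% of the exon peaks in FA0 and 2.04% in FA4, against 1.02% and 0.850% of the other peaks. These shares rest on 1 to 3 exon peaks in a brain list and 4 in each cell list. The vomeronasal family had 8 genes with an exon peak in brain and 8 in the cells, of 146 and 218 with a peak of any class. Olfactory receptor genes had 1 in brain and 2 in the cells, of 246 and 480 with a peak of any class. Over all genes with any peak, 3.12% in brain and 4.29% in the cells had an exon peak. MicroRNA, small nucleolar RNA and clustered protocadherin genes had no exon peak in any list. A peak of another class was present in 261, 14 and 6 of them in brain and in 463, 31 and 11 in the cells. For the small nucleolar RNA and protocadherin genes a count of 0 is near the background. MicroRNA and small nucleolar RNA genes are shorter than the 2 kb that the class leaves out after the start. Members of these families resemble each other, so the assignment of a peak to 1 copy is uncertain.

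The X chromosome held 7 exon peaks in all. Its share was 2.41%, 1.30% and 1.75% of exon peaks in NTD and 2.17%, 0% and 0% in CON, against 3.70%, 4.04% and 3.99% of the other peaks in NTD and 1.13%, 1.38% and 1.40% in CON. Exon peaks had the lower share in 5 of 6 lists, by 1.33 points on average, a difference that the exact sign-flip test did not separate from 0 (p = 0.0625, adjusted 0.1875). Each value rests on 2 exon peaks or fewer.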

How the data were processed

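Pulldown and input DNA of NTD and CON embryo brain and of FA0 and FA4 stem cells were sequenced. The 8 sample records are 4 immunoprecipitates and 4 inputs, and the 3 brain pulldowns of a group share a record. The processing used cutadapt 1.9.2, Bowtie2 2.2.4 and build mm10, per the submitters' processing notes, which give no further detail here. The sources used here do not name the peak caller. Peaks were called per pulldown against the input of the group, per the file headers, and no p exceeded 0.01.

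Judging by its values, the tag count deposited for each peak is a raw whole number, and it may give the height at the summit. The authors wrote p-values and q-values on the −log10 scale. The fold enrichment deposited by the authors is a ratio, which the values show to be the tags plus 1 over a background plus 1. The background was recovered from it and called raised where over 1% above the commonest value of its list. Read totals were not used here, which leaves the tags per peak as the measure of depth.

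Rows were reduced to the first row per peak, with the authors' class, transcript and gene. No peak carried more than 1 class over its rows. Symbols and start windows were matched to RefSeq tables of GRCm38.p6. Peaks of different lists counted as shared from 1 base of overlap up.

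NTD and CON were compared by a two-sided exact permutation test with 20 possible assignments of the lists and a smallest p of 0.1, and 6 such results were adjusted together (Benjamini-Hochberg). Exon peaks were compared with other peaks of their list by exact sign flips over 64 patterns (smallest p 0.03125), adjusted over 4 results, and exon against intron position was not tested. FA0 and FA4 had 1 list each and no test. Shares carry 95% Wilson intervals.

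Members, gene lists and tests were chosen with earlier results of these data known. Named were the regions held by 2 or more brain lists, the exon peaks of highest fold per list (2 in each brain list, 8 in each cell list, with ties), shared cell peaks, genes of the 9 pathway lists, and genes with several exon peaks. Of ties, some members are named and the rest counted. Single genes of the pathway lists that are counted but not named are not reported here. Peaks nearest to or farthest from a transcript end, and the exon peaks with q of at most 0.05, were chosen for naming with their values in view.

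The settings varied were a fold of at least 5, exon in any transcript, autosomes alone or no chromosome 8, overlap of at least 50%, lists of equal length, each brain list left out, and a block that paired lists by number. Chosen after seeing the data were peaks at the common background, transcripts of at least 20 kb, the mean position over all transcripts, and the results on exon against intron position and on overlap of FA0 with FA4. On simulated lists, 200 of 200 planted shared peaks were found. They were made to overlap, so this checks the code alone. Python 3.11.15, numpy 2.4.6, pandas 2.3.3, scipy 1.17.1 and matplotlib 3.10.9 were used.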

Additional observations from a re-analysis of the deposited data

How the results depend on the processing

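A fold of at least 5 left no exon peak in any brain list, so it gave no value there. In the cells 0 of 40 remaining FA0 peaks and 1 of 46 remaining FA4 peaks were exon peaks, and the difference in exon share was −2.17 percentage points instead of 0.176. With lists cut to equal length, NTD minus CON was −1.33 for the number of exon peaks instead of 26.7, 0.245 for the median fold instead of 0.0314 (exact permutation p = 0.1), −0.900 points for recurrence within the group instead of −3.80 and 3.89 points for median position instead of −4.30, and exon minus other was −1.05 points for recurrence instead of 1.61. At the common background, NTD minus CON was 0.0354 points for the exon share and −0.0522 for the median fold, exon minus other was 0.933 bases for width and 0.582 points for recurrence (exact sign-flip p = 0.03125), and 0% of FA0 exon peaks overlapped an FA4 peak. In transcripts of at least 20 kb, exon minus intron position was 35.8 points instead of 43.7. The causes were not tested.

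Leaving out 1 brain list in turn gave NTD minus CON values of 15.3 (without NTD 3) to 37.3 (without CON 2) for the number of exon peaks, −0.129 to 0.0431 points for the exon share, −0.00358 to 0.0649 for the median fold, −5.42 to −2.31 points for median position (without CON 3 and without CON 1) and −5.42 to 0.554 points for recurrence within the group. Exon minus other ranged over −0.0327 to 0.0175 for the median fold and −2.19 to 0.297 bases for width, and over 0.340 (without CON 3) to 2.27 points (without NTD 2) for recurrence. Exon minus intron position ranged over 42.1 to 44.8 points. The width of exon peaks in NTD against CON kept its sign in 11 of 11 alternatives and the X share of exon against other peaks in 9 of 9. Some of these could not change a value, since no peak carried more than 1 class and the replicate block changes only the p-value. Neither passed 0.05 in any. The exact permutation test of width could not, with a smallest p of 0.1. Nor could the exact sign-flip test of X share with 1 list left out, with a smallest p of 0.0625.

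Same-numbered NTD and CON lists share only a number. Over 2585 bins, the deviations of their peak shares correlated at 0.0440, −0.0722 and −0.00488. With the replicate block the differences between NTD and CON kept their values, for example 26.7 exon peaks and −11.6 bases of width, and the exact p was 0.25 to 1, with 0.25 the smallest that 3 pairs allow. Depth limits most values, since a list holds 46 to 114 exon peaks in brain and the median exon peak has 7 to 9 tags. A gene without an exon peak may hold 6mA that was not detectable at this depth.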
